A study of Rattus norvegicus with 84 samples.

Results

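Rats kept in the home cage were injected with SAHA or with its solvent, and the tissue labelled CA1 was compared between them on 14 of the 84 bead arrays of the study. The 14 arrays were chosen by their labels alone: 7 arrays of SAHA-treated rats and 7 arrays of vehicle-treated rats, 1 array per rat within this region. All were male F344xBN hybrid rats aged 7 months, singly housed and handled before treatment. The SAHA rats received 50 mg/kg intraperitoneally in undiluted DMSO, the vehicle rats an equal volume of DMSO, and all were killed 90 min after the injection. Uninjected rats were not among the samples, and neither group had been trained in the water maze. The study held 28 rats and 3 dissected regions in 12 groups of 7. The other rats had been trained in the maze and swam a session of 17 trials after the injection (RPC), and their tissue labelled CA1 is used below as a second set of rats.

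SAHA (vorinostat) is a hydroxamic acid that blocks zinc-dependent histone deacetylases, enzymes that take acetyl groups off histone tails and other proteins. Acetylated histones are a mark of active chromatin, and inhibitors of this class are known to raise some transcripts and lower others within hours. In hippocampal neurons, activity-induced genes such as Fos, Arc and Egr1 are transcribed within minutes of stimulation, and deacetylase inhibitors have been studied for effects on memory. The arrays measured transcript levels only, so acetylation itself is not among the data.

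The region label was checked against marker genes, and the markers spoke for dentate granule tissue. Over the 14 arrays labelled CA1, the CA1 pyramidal markers Mpped1, Fibcd1, Man1a1 and Pou3f1 were detected on 0 of 14 arrays each, against 14 of 14 home cage arrays labelled DG (dentate gyrus). Wfs1, another CA1 marker, had a median normalized log2 intensity of 6.67 in labelled CA1 and 10.7 in labelled DG. Prox1, the transcription factor that defines granule cells, was above background on all 14 arrays of labelled CA1, against 2 of the 14 arrays of labelled DG, with a difference of 1.10 ± 0.08 on the log2 scale (± SE, limma fit of the 42 home cage arrays, adjusted p = 4.41e-16). The 3 regions were taken from the same rats, and this fit had no term for the rat. Most Prox1 values in labelled DG were not above background, so the size of its difference is not fixed. The granule cell markers C1ql2 and Sema5a were higher in labelled CA1 by 2.28 ± 0.19 and 1.84 ± 0.09 on the same scale (adjusted p = 6.17e-14 and 1.07e-21 in limma). Among the listed markers, Htr1a of CA1 neurons was higher in labelled CA1 and Pkp2 of granule cells was lower there, so these ran the other way. The deposited label is kept throughout, and it names the samples rather than the tissue.

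In array quality the groups differed by less than the spread between rats. The share of probes detected was 41.5 ± 0.47% in SAHA rats and 41.6 ± 1.85% in vehicle rats (SD, n = 7 each, two-sided exact permutation test, p = 0.867). The mean signal was 515 ± 69.7 in SAHA rats and 542 ± 92.9 in vehicle rats (SD, n = 7 each, two-sided exact permutation test, p = 0.54). Replicate 5 of SAHA and replicate 6 of vehicle had the lowest median correlations with the other arrays labelled CA1, at 0.972 and 0.975, and stood apart from their groups. Results were therefore also computed without these arrays, and the call described next stood in that fit.

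A single probe passed the test. Of 9919 tested probes, 1 had an adjusted p under 0.05 (0.0101%; limma, Benjamini-Hochberg over all tested probes), and it belongs to Tmem252, which encodes a small predicted transmembrane protein whose function is little known. Its promoter is printed because Tmem252 carries the result. It is the 300 bases from 250 before to 50 after the gene start in RefSeq, build GRCr8, chr1:231743146-231743445 on the plus strand, all in lower case because none of the motifs described below was found in it.

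Tmem252: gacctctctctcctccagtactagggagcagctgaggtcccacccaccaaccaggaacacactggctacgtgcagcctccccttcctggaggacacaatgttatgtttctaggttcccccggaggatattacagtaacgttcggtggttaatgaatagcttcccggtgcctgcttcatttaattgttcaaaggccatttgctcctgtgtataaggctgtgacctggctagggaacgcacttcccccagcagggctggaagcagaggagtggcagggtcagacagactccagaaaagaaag

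Tmem252 was low in all 7 SAHA rats. Its normalized log2 intensity ran from 4.83 to 5.38 with a median of 5.02 in SAHA rats, and from 6.47 to 7.37 with a median of 6.75 in vehicle rats. The 2 groups did not overlap: the highest SAHA array lay below the lowest vehicle array. The probe was above background on 0 of 7 arrays of SAHA rats and on 7 of 7 arrays of vehicle rats, so the level under SAHA has only an upper bound. Set against that bound, Tmem252 fell in SAHA rats and was at least 1.63-fold lower than in vehicle rats. The bound takes for each SAHA array the higher of the probe's own signal and the lowest signal among probes above background on that array. The fitted difference was -1.74 ± 0.19 on the log2 scale (± SE, limma adjusted p = 4.89e-06). Its size depended on the treatment of dim signals, and it was -0.95 in the authors' z-scores put on the log2 scale and -1.04 without background correction, with the call kept in both.

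The same probe was low in the other sets of arrays. In RPC rats, labelled CA1, Tmem252 ran from 5.27 to 6.71 with SAHA and from 6.52 to 7.53 with vehicle, with a difference of -1.28 ± 0.19 (limma adjusted p = 0.00239). There 1 of 7 SAHA arrays was above background against 7 of 7 vehicle arrays, and the highest SAHA array lay above the lowest vehicle array. The home cage effect minus the RPC effect was -0.46 ± 0.27, with an unadjusted p of 0.0981 and an adjusted p of 0.637 in the limma interaction contrast. Since the SAHA level in home cage rats has only a bound, the size of this difference is not fixed, and a difference between the behaviours was not detectable at this number of rats.

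In the other dissected regions of home cage rats, Tmem252 was low on the SAHA arrays too. In labelled CA3 it ran from 5.06 to 5.65 in SAHA rats and from 6.31 to 7.27 in vehicle rats. There 0 of 7 SAHA arrays and 7 of 7 vehicle arrays were above background, and Tmem252 was at least 2.0-fold lower in SAHA rats (limma adjusted p = 1.86e-09). In labelled DG it ran from 5.18 to 6.10 in SAHA rats and from 6.85 to 7.49 in vehicle rats, a fitted difference of -1.70, with 2 of 7 SAHA arrays and 7 of 7 vehicle arrays above background. The groups did not overlap in either region. The regions come from the same rats and are not independent. The effect in labelled CA1 did not pass for a difference from that in labelled CA3 or labelled DG (limma adjusted p = 0.997 and 0.982), and these contrasts rest on SAHA values at or near background.

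**Figure D1:**
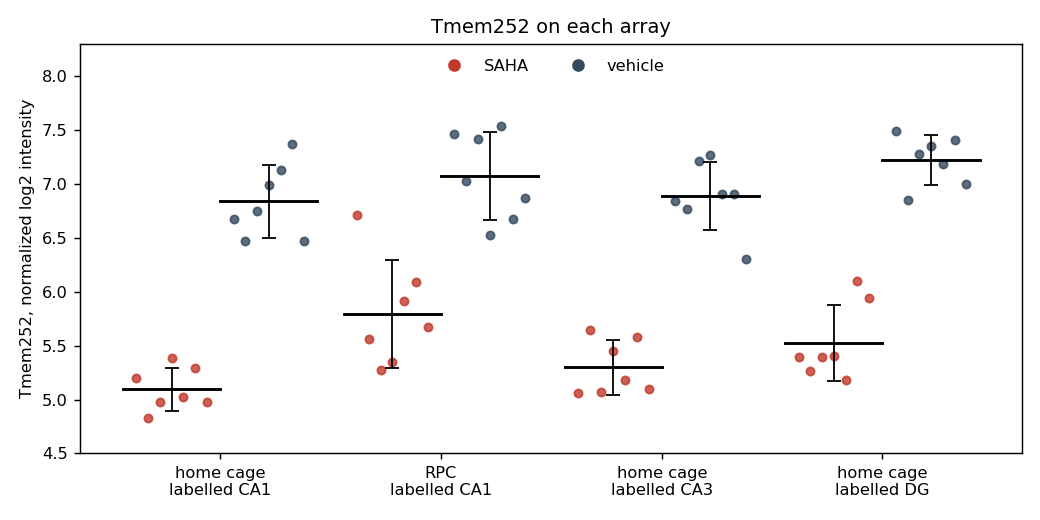
Normalized log2 intensity of Tmem252 (vertical axis) on each array of 4 sets of rats and regions, SAHA in red to the left of vehicle in dark blue, with 7 arrays per group. Points are arrays, bars are means and error bars are SDs, and in home cage rats labelled CA1 the 7 SAHA arrays lie between 4.83 and 5.38, all under the 7 vehicle arrays.

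No other probe passed, and the next ones by p-value were Nfkbia, Gadd45g and Specc1l, all with lower means in SAHA rats. At an unadjusted p under 0.05, 710 of 9919 probes (7.16%) differed, 274 with higher (2.76%) and 436 with lower means in SAHA rats (4.4%). With median scaling in place of quantile normalization, 60 probes had higher and 329 had lower means at that p. The 7 SAHA arrays lay wholly above the 7 vehicle arrays for 4 probes (0.0403%) and wholly below them for 7 probes (0.0706%). These arrays can be split into groups of 7 in 3432 ways. Among 9919 probes, a few with wholly separate groups in each direction are thus likely by chance. Separation of the groups is given below as a description and not as a call. Over all tested probes, 49% had higher and 51% had lower means in SAHA rats, while median scaling gave 32.4% higher and 67.6% lower. Differences were small: their median size over all tested probes was 0.07 on the log2 scale. Between the 5th and 95th percentiles of probes they ran from -0.21 to 0.22. The signed median over all 7188 genes was 0.00 after quantile normalization, which removes a shared shift, and -0.05 with median scaling.

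**Figure D2:**
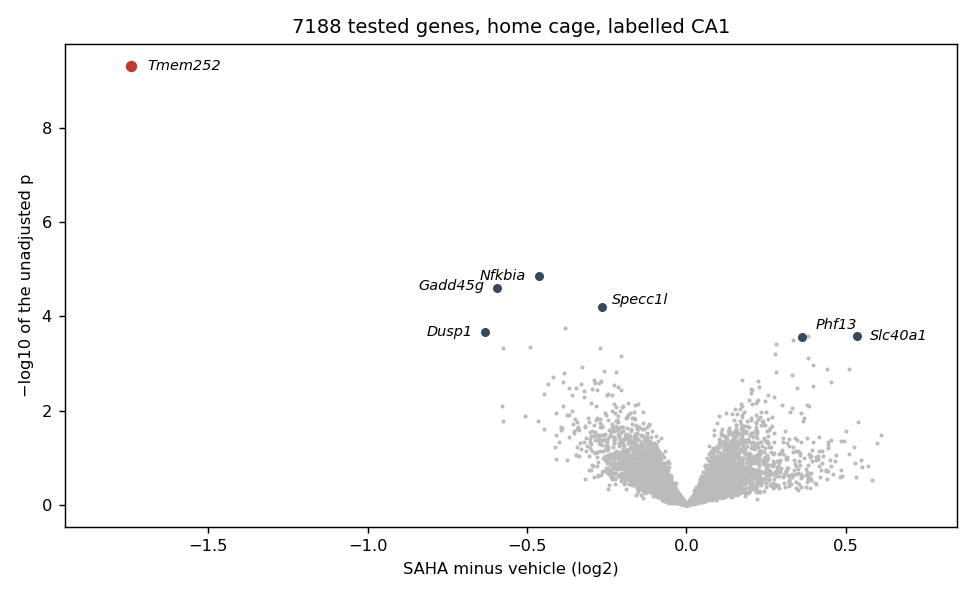
The difference SAHA minus vehicle in home cage rats labelled CA1 (log2, horizontal axis) against −log10 of its unadjusted p in limma (vertical axis) for 7188 genes, each read from its brightest probe. Tmem252 stands alone at -1.74, and the 6 other labelled genes (dark blue) missed the adjusted threshold.

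The promoters of Nfkbia, Gadd45g and Phf13 are shown beside that of Tmem252, because these genes came next among the lower (Nfkbia, Gadd45g) and the higher means that were seen in both sets of rats (Phf13). Sequences are those of RefSeq, build GRCr8, 5′ to 3′ on the gene's strand: Nfkbia at chr6:78597023-78597322 (minus strand), Gadd45g at chr17:13530302-13530601 (minus strand) and Phf13 at chr5:167784028-167784327 (minus strand). Capitals mark matches, on either strand, to 4 motifs: the leading part GGGANTT of the kappa-B motif, the GC box GGGCGG, the CRE core TGACG and the TATA box TATAAA.

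Nfkbia: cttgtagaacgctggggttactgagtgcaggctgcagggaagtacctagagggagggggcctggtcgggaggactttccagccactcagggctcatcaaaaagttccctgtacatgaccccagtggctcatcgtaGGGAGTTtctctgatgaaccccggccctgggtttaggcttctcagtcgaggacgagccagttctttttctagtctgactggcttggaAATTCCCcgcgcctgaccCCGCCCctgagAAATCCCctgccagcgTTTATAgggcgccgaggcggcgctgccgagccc

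Gadd45g: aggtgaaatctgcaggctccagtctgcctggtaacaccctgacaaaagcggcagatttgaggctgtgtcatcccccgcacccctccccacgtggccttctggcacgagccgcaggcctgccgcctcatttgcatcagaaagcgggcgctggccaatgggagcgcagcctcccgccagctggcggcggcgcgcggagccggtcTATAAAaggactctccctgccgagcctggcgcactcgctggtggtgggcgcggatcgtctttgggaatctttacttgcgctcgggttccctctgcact

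Phf13: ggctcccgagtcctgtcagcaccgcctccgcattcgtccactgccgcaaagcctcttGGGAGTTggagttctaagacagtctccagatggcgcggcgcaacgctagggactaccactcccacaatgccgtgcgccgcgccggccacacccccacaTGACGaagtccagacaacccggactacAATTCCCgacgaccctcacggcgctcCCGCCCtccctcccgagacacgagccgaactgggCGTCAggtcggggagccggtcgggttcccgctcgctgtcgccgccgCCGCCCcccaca

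The Nfkbia window held 3 matches to the kappa-B letters, 1 of them on the gene's strand, and 1 match each to the GC box and the TATA letters, both on the opposite strand. Over 33469 promoters of the same length, 17.2% held the kappa-B letters, 33.1% the GC box, 21.2% the CRE core and 14.2% the TATA letters. The Gadd45g window held 1 TATA match, starting 48 bases before the start, and the Phf13 window held 2 matches each to the kappa-B letters, the GC box and the CRE core. No matches overlapped. A match describes the letters in the window and is not a binding site.

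Nfkbia encodes I-kappa-B-alpha, which keeps the factor NF-kappa-B out of the nucleus, and it is itself induced by NF-kappa-B and by glucocorticoids. Its level ran from 10.52 to 11.15 with a median of 10.95 in SAHA rats, and from 11.14 to 11.55 with a median of 11.44 in vehicle rats. Only 1 SAHA array reached the vehicle range. The difference was -0.46 ± 0.09 (limma adjusted p = 0.0695). It was called in the fit of all 84 arrays with the rat as a random block (limma adjusted p = 0.00743). The labels do not name the rat, so a replicate number shared across the 3 regions was read as the same rat. The estimated correlation within these blocks was -0.01, so this p-value treats the arrays nearly as independent. Nfkbia was also called when SAHA replicate 3, SAHA replicate 4 or vehicle replicate 1 was left out (limma adjusted p from 0.0255 to 0.0304). Over the 27 alternatives its adjusted p ran from 0.00743 to 0.385.

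Gadd45g, a stress- and activity-induced gene linked to cell cycle arrest and DNA demethylation, had a larger difference and groups that stood apart. It ran from 7.95 to 8.57 with a median of 8.25 in SAHA rats, and from 8.58 to 9.15 with a median of 8.77 in vehicle rats. The difference was -0.59 ± 0.12 (limma adjusted p = 0.085). It passed with array weights (adjusted p = 0.0418) and without SAHA replicate 3 (0.0255) or SAHA replicate 4 (0.0468), and over the 27 alternatives the limma adjusted p ran from 0.0255 to 0.29.

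Dusp1, a nuclear phosphatase that switches off MAP kinases and is induced by both activity and glucocorticoids, varied more between rats. It ran from 9.88 to 11.22 with a median of 10.42 in SAHA rats, and from 10.86 to 11.46 with a median of 11.05 in vehicle rats. SAHA replicate 3 held the value of 11.22, and the other 6 SAHA arrays lay below every vehicle array. The difference was -0.63 ± 0.15 (limma adjusted p = 0.247), and -0.76 without that replicate (limma adjusted p = 0.0123). Of 27 alternatives, with adjusted p-values up to 0.573, this was the 1 in which Dusp1 passed.

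Specc1l, Rab3d and Cldn5 also had lower means in SAHA rats. Specc1l, which encodes a protein linking actin and microtubules, ran from 8.37 to 8.71 in SAHA rats and from 8.75 to 8.85 in vehicle rats, with a difference of -0.26 ± 0.06 (limma adjusted p = 0.129). These groups did not overlap, as for Rab3d, a small GTPase of secretory vesicles, which had a difference of -0.21 ± 0.07 (adjusted p = 0.439). Cldn5, the main tight junction protein of the blood-brain barrier, ran from 11.03 to 11.54 in SAHA rats and from 11.40 to 11.69 in vehicle rats, with a difference of -0.27 ± 0.07 (limma adjusted p = 0.248).

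Among genes with higher means in SAHA rats, none passed, and Slc40a1 had the largest difference of the 15 with the smallest p. Slc40a1 encodes ferroportin, the exporter of iron from cells. It ran from 6.79 to 7.47 with a median of 7.30 in SAHA rats, and from 6.33 to 7.20 with a median of 6.75 in vehicle rats. SAHA replicate 6 was the lowest SAHA array, and the other 6 lay above every vehicle array. The difference was 0.53 ± 0.13 (limma adjusted p = 0.247), and 0.64 with array weights, where it passed (adjusted p = 0.0267, against up to 0.989 in the other alternatives).

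Phf13, a PHD finger protein that reads trimethylated lysine on histone H3, ran from 8.78 to 9.07 with a median of 9.02 in SAHA rats and from 8.49 to 8.73 with a median of 8.62 in vehicle rats. The groups did not overlap, and the difference was 0.36 ± 0.09 (limma adjusted p = 0.247). Abhd2, a lipase that hydrolyses monoacylglycerols, ran from 6.24 to 6.49 in SAHA rats and from 5.80 to 6.20 in vehicle rats, and was above background on 7 of 7 SAHA arrays and 2 of 7 vehicle arrays. These groups did not overlap either, and the difference was 0.38 ± 0.09 (limma adjusted p = 0.247). P3h1, a collagen prolyl hydroxylase, was the other gene whose SAHA arrays all exceeded the vehicle arrays, with a difference of 0.33 ± 0.10 (limma adjusted p = 0.43). A few genes with such separation are likely by chance among all tested genes, so it does not set these genes apart.

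**Figure D3:**
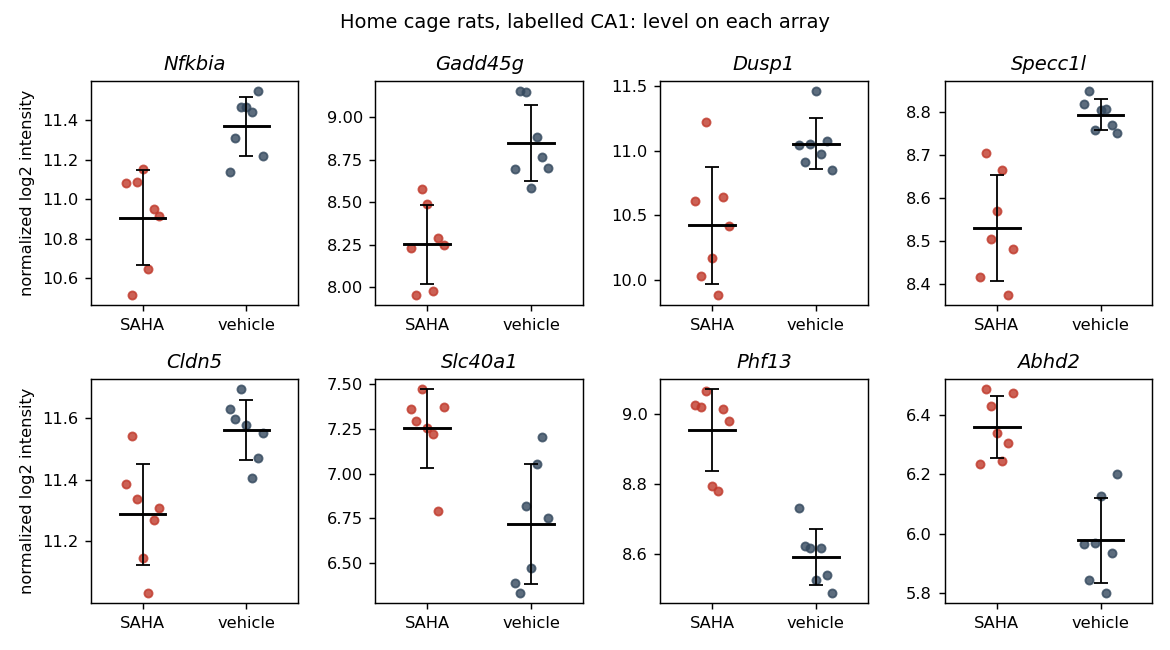
Normalized log2 intensity (vertical axes, each panel with its own range) of 8 genes on the 14 home cage arrays labelled CA1, SAHA in red to the left of vehicle in dark blue. Points are arrays, bars are means and error bars are SDs (7 arrays per group), and Gadd45g, Specc1l, Phf13 and Abhd2 show groups that do not overlap. Separation of the groups is a description and not a call.

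Further genes of small p, given here in part, did not pass the adjusted test, and several of them were dim. St3gal6, a sialyltransferase, had a difference of 0.33 ± 0.08, Zswim5 of 0.28 ± 0.07 and Clk1, a kinase of splicing factors, of 0.38 ± 0.10, with adjusted p-values of 0.247, 0.248 and 0.322 in limma. Axin2, a target and brake of Wnt signalling, was above background on 5 of 7 SAHA arrays and 1 of 7 vehicle arrays, with a difference of 0.51 ± 0.14 (adjusted p = 0.407). Cyp4f5, a cytochrome P450, was above background on 1 of 7 SAHA arrays and 7 of 7 vehicle arrays, with a difference of -0.49 ± 0.12 (adjusted p = 0.248). Bloc1s4, a subunit of a complex of lysosome-related organelles, was above background on 0 of 7 SAHA arrays and 5 of 7 vehicle arrays, and lay at least 1.05-fold lower in SAHA rats on that bound (adjusted p = 0.43). Pwp1 was above background on 0 of 7 SAHA arrays and 3 of 7 vehicle arrays, and no fold can be given for it.

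The RPC rats gave a reading of the same genes in other animals. Of the 30 genes of smallest p in home cage rats, 15 with higher and 15 with lower means, 24 had the same direction in RPC rats, 7 of them with an unadjusted p under 0.05, and none had the opposite direction at that p. Over all tested probes, 1049 (10.6%) had an unadjusted p under 0.05 in RPC rats and 6 (0.0605%) an adjusted one. Tmem252, Phf13 and Cldn5 passed in RPC rats: Phf13 rose by 0.47 ± 0.09 and Cldn5 fell by 0.36 ± 0.07 (limma adjusted p = 0.0369 each). Nfkbia had a difference of -0.34 ± 0.09 there (adjusted p = 0.152), and Slc40a1 of 0.30 ± 0.13 (adjusted p = 0.396). Other genes had closer means in RPC rats: Gadd45g had 8.74 with SAHA and 8.94 with vehicle, and Abhd2 6.15 and 6.11. St3gal6 ran the other way in RPC rats, with means of 7.86 with SAHA and 7.95 with vehicle.

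Over all genes, 434 had an unadjusted p under 0.05 in home cage rats, 195 with higher means (2.71%) and 239 with lower means in SAHA rats (3.32%). Of these, 65 also had an unadjusted p under 0.05 in RPC rats, 51 in the same direction and 14 in the opposite one. Over all tested probes, 10.6% had that p in RPC rats. Both comparisons use 1 shared estimate of the spread per probe, so their p-values are not independent. Among the 15 genes of smallest p in both sets were Hyal2, a hyaluronidase, with -0.27 ± 0.08 in home cage rats, against -0.22 ± 0.08 in RPC rats, and Lipt2, a lipoyl transferase, with -0.27 ± 0.08 in home cage rats, against -0.26 ± 0.08 in RPC rats. Fn3k, the kinase that removes sugar from glycated proteins, had 0.17 ± 0.06 in home cage rats, against 0.28 ± 0.06 in RPC rats. Fam117a, with 0.35 ± 0.11 in home cage rats, against 0.29 ± 0.11 in RPC rats, and Efcab14, with -0.45 ± 0.15 in home cage rats, against -0.41 ± 0.15 in RPC rats, each had 1 direction in both. None of these 5 genes passed in either set, with limma adjusted p-values from 0.0843 to 0.564.

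**Figure D4:**
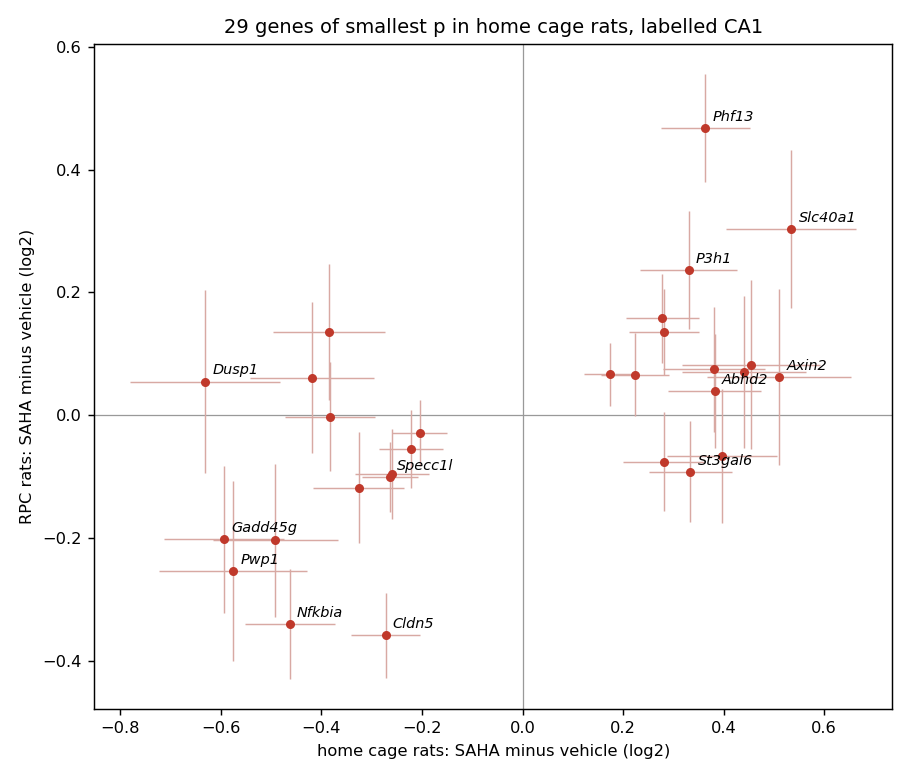
The SAHA minus vehicle difference (log2) in home cage rats (horizontal axis) against that in RPC rats (vertical axis), labelled CA1, for the 29 genes of smallest p in home cage rats other than Tmem252, with error bars of 1 SE. The horizontal values chose the genes. Phf13, Slc40a1, Nfkbia and Cldn5 have the same direction on both axes, while Dusp1 lies at -0.63 and 0.05.

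Whether the SAHA effect differed between home cage and RPC rats was tested for each probe. Of 9919 probes, 1 passed for the difference of effects (0.0101%), a probe without a gene symbol, and 829 had an unadjusted p under 0.05 (8.36%). No probe passed in 12 of the 14 fits that left out 1 home cage array, nor with the authors' z-scores, the replicate block, all 84 arrays with the rat as a random block, no filter or the strict filter, or without the 2 arrays of lowest correlation. That probe ran from 5.67 to 6.79 with a median of 6.47 in SAHA rats and from 5.54 to 5.95 with a median of 5.80 in vehicle rats of the home cage. It was above background on 5 of 7 SAHA arrays and 0 of 7 vehicle arrays there. In RPC rats its median was 5.86 with SAHA and 6.20 with vehicle. It was above background on 1 of 7 SAHA arrays and 7 of 7 vehicle arrays there. In home cage rats its mean lay at least 1.18-fold higher with SAHA on the bound used for Tmem252. That home cage effect did not pass (limma adjusted p = 0.228). The fitted difference of effects was 1.03 (limma adjusted p = 0.0442), and it rests in part on values at background.

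Among named genes, the smallest p for the difference of effects belonged to Apoo, a subunit of the mitochondrial cristae complex, with -0.10 in home cage rats, against 0.20 in RPC rats (unadjusted p = 0.000259). Polg2, the accessory subunit of the mitochondrial DNA polymerase, had -0.11 in the home cage and 0.31 after RPC, and Wdr33, a polyadenylation factor, had -0.25 in the home cage and 0.19 after RPC. Tob1, an antiproliferative gene, had 0.16 in home cage rats, against -0.57 in RPC rats. Apold1, an early response gene of endothelium, had -0.36 in home cage rats, against 0.39 in RPC rats, and Dusp1 had -0.63 in the home cage and 0.05 after RPC. The limma adjusted p for the difference was 0.574 for each of these genes, so none passed.

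In the other dissected regions the named effects in labelled CA1 were read in the home cage rats. Of the same 30 genes, 21 had the same direction in labelled CA3, 7 of them with an unadjusted p under 0.05, and 19 had it in labelled DG, 10 of them at that p. Over all tested probes, 122 (1.23%) had that p in labelled CA3, against 497 (5.01%) for labelled DG. The 30 genes were chosen on arrays of the same rats. Gadd45g differed by -0.61 (labelled CA3) and -0.65 (labelled DG), Dusp1 by -0.53 (labelled CA3) and -0.51 (labelled DG), and Slc40a1 by 0.42 (labelled CA3) and 0.48 (labelled DG). Nfkbia had -0.28 in labelled CA3 against -0.47 in labelled DG, and Phf13 0.20 against 0.40. In labelled DG, Nfkbia and Gadd45g fell past the threshold (limma adjusted p = 0.0111 and 0.0491). Specc1l, by contrast with labelled CA1, had -0.01 in labelled CA3 against -0.15 in labelled DG, and Abhd2 -0.02 against 0.08. No probe passed for a difference of effects, with 388 probes (3.91%) at an unadjusted p under 0.05 for labelled CA3 and 640 (6.45%) for labelled DG.

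The lists of genes below were read in the home cage comparison as counts, beside the background of 2.71% higher and 3.32% lower at an unadjusted p under 0.05 over all genes. Of the 11 zinc-dependent deacetylases, the family that holds the targets of SAHA, 6 were tested and 0 had an unadjusted p under 0.05. Their differences ran from -0.13 to 0.07. Hdac2, the class I enzyme most studied in memory, ran from 9.96 to 10.41 in SAHA rats and from 10.04 to 10.50 in vehicle rats (-0.13 ± 0.07, limma adjusted p = 0.8). Hdac1 had -0.04 ± 0.09 and Hdac3 -0.09 ± 0.07, and their groups overlapped. Hdac6 was not detected on any of the 28 arrays labelled CA1. Among partners of the deacetylases, 11 of 24 listed were tested, with Rbbp7, a histone-binding subunit, at -0.39 ± 0.16 and Gatad2b, a subunit of the NuRD complex, at 0.28 ± 0.12 (unadjusted p = 0.0233 and 0.0302).

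Genes known to respond to deacetylase inhibitors in cultured cells gave no call. Of 14 listed, 9 were tested and 0 had an unadjusted p under 0.05, with a median of -0.07 against 0.00 over all genes. Bdnf, the neurotrophin raised by such inhibitors in several systems, ran from 9.97 to 10.16 in SAHA rats and from 9.79 to 10.09 in vehicle rats (0.08 ± 0.08, limma adjusted p = 0.9). Cdkn1a, the cell cycle inhibitor often induced by these drugs, was not detected on any of the 28 arrays.

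Of 28 immediate early genes tested among 41 listed, 20 had lower means in SAHA rats, against 3549 of 7188 over all genes, and 5 had an unadjusted p under 0.05, all of them lower, with a median of -0.08. With median scaling, 21 of the 28 had lower means against 4870 of 7188 over all genes. The 5 genes at that p were Gadd45g, Dusp1, Jun (-0.16 ± 0.06), Klf10 (-0.27 ± 0.11) and Apold1 (-0.36 ± 0.14), and none passed the adjusted test. Fos and Arc, markers of recent neuronal activity, had higher means in SAHA rats that lay within the spread. Fos ran from 5.96 to 6.53 in SAHA rats and from 5.87 to 6.67 in vehicle rats (0.14 ± 0.16). It was dim, above background on 6 of 7 SAHA arrays and 4 of 7 vehicle arrays. Arc ran from 7.11 to 8.22 in SAHA rats and from 7.28 to 8.02 in vehicle rats (0.14 ± 0.16). Egr1 had -0.19 ± 0.12 and Junb 0.03 ± 0.09. Npas4 was not detected on any of the 28 arrays.

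Targets of glucocorticoids overlapped this list. Of 15 tested, 4 had an unadjusted p under 0.05, all lower: Nfkbia, Dusp1, Ddit4 (-0.23 ± 0.10), an inhibitor of mTOR signalling, and Errfi1 (-0.20 ± 0.09), an inhibitor of the EGF receptor. The other 11 ran from -0.16 ± 0.12 for Mt1, a metallothionein, to 0.06 ± 0.10 for Fkbp5, a co-chaperone of the glucocorticoid receptor, with groups that overlapped. Among them Sgk1 had 0.01 ± 0.08 and Tsc22d3 -0.03 ± 0.07. Fkbp5 ran from 10.95 to 11.64 in SAHA rats and from 10.92 to 11.36 in vehicle rats. In the NF-kappa-B list, 1 of 9 tested members, Nfkbia, had an unadjusted p under 0.05, and the median was 0.01. In the list of p53 targets and Gadd45 genes, 8 of 9 tested had lower means, against 3549 of 7188 over all genes. With median scaling these counts were 8 of 9 and 4870 of 7188. Gadd45g, counted above among the immediate early genes, and Gadd45gip1 (-0.35 ± 0.11) had an unadjusted p under 0.05.

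The genes whose levels were most like those of Tmem252 were read over all rats labelled CA1. Over the 28 arrays labelled CA1, the 5 genes with the highest Pearson correlation with Tmem252 were Nfkbia (r = 0.876), Notch4 (0.774), Fli1 (0.774), Esam (0.755) and Wfdc1 (0.746). The arrays share a drug difference in Tmem252, so these values describe 28 arrays of 4 groups and carry no test. Tmem252 was above background on 0 of 7 SAHA arrays of the home cage and 1 of 7 of RPC. Its values on the SAHA arrays are thus mostly background readings. Notch4, a Notch receptor of endothelium, ran from 6.97 to 7.59 in SAHA rats and from 7.35 to 7.98 in vehicle rats (-0.37 ± 0.12). Fli1, an ETS factor of endothelial and blood cells, had -0.36 ± 0.13, and Esam, an adhesion protein of endothelial junctions, ran from 7.84 to 8.25 in SAHA rats and from 8.17 to 8.83 in vehicle rats (-0.43 ± 0.13). The groups of Notch4 and of Esam overlapped, and none of the 5 genes passed the adjusted test.

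Of these 5 genes, Esam alone is a tested member of the endothelial marker list. Of 18 listed, 10 were tested and 8 had lower means in SAHA rats, against 3549 of 7188 over all genes. The median was -0.08, and 2 had an unadjusted p under 0.05, Cldn5 and Esam. Ocln had a higher mean (0.38 ± 0.21), and was above background on 4 of 7 SAHA arrays and 1 of 7 vehicle arrays. In RPC rats the median of the list was 0.00, with Cldn5 at -0.36, Esam at -0.26, Ocln at 0.49 and Egfl7 at 0.39. The mean level of the 10 markers ran from 8.24 to 8.59 in SAHA rats and from 8.37 to 8.82 in vehicle rats, with ranges that overlapped. The other vessel-associated lists had lower medians too: 6 of 6 tested fibroblast markers had lower means (median -0.11) and 3 of 4 tested mural cell markers did (-0.07). None of these had an unadjusted p under 0.05. The lists share members: of the fibroblast markers, Dcn is also listed for CA1 neurons and Pdgfra for oligodendrocyte precursors. The mean level of the fibroblast markers ran from 8.74 to 9.02 in SAHA rats and from 8.61 to 9.41 in vehicle rats, and that of the mural markers from 6.93 to 7.34 in SAHA rats and from 6.92 to 7.77 in vehicle rats. Of the endothelial defining markers, Flt1 and Cdh5 were not detected on any of the 28 arrays. In whole tissue, fewer cells of a type and less RNA per cell cannot be told apart, and the part of endothelial cell number in these values was not tested.

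**Figure D5:**
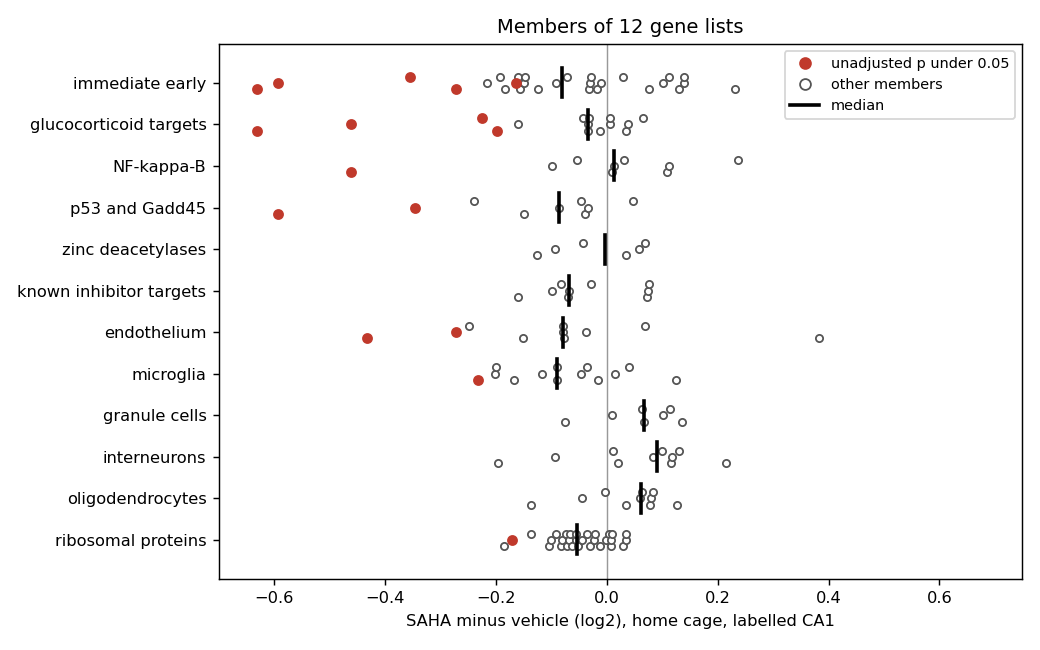
Differences SAHA minus vehicle (log2, horizontal axis) in home cage rats labelled CA1 for the tested members of 12 gene lists (rows). Filled red points had an unadjusted p under 0.05, open points did not, and black lines are medians, which run from -0.09 for microglia to 0.09 for interneurons.

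Among the other cell type lists, few members had an unadjusted p under 0.05. For the counts by direction, 3639 of all 7188 genes had higher and 3549 had lower means in SAHA rats. With median scaling these were 2318 and 4870. Of 7 tested granule cell markers, 6 had higher means in SAHA rats (4 with median scaling) and 0 had that p, and Prox1 ran from 6.40 to 6.93 in SAHA rats and from 6.37 to 6.77 in vehicle rats. Of 13 tested microglial markers, 10 had lower means and 1 had that p, C1qb of the complement system (-0.23 ± 0.10). Of 4 tested CA1 neuron markers, 3 had higher means, with a median of 0.23 and 0 at that p, and their mean level ran from 7.63 to 8.26 in SAHA rats and from 7.38 to 8.18 in vehicle rats. All 5 tested markers of oligodendrocyte precursors had lower means, with a median of -0.07 and 0 at that p. Interneuron and oligodendrocyte markers had medians of 0.09 and 0.06, with 0 of 10 tested members at that p in each list. Astrocyte markers had a median of -0.04 and 0 of 10 at that p, with Gfap at -0.03 ± 0.06. The choroid plexus marker Ttr was above background on 3 of 7 SAHA arrays and 1 of 7 vehicle arrays, and 8 of the 11 listed choroid plexus genes were detected on none of the 28 arrays.

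Housekeeping lists gave few genes. Of 30 ribosomal protein genes tested, 23 had lower means in SAHA rats, against 3549 of 7188 over all genes. Their median was -0.05, and 1 of them, Rpl7 (-0.17 ± 0.08), had an unadjusted p under 0.05. Under median scaling, which moved the median of all genes to -0.05, all 30 had lower means with a median of -0.13. Of 30 proteasome subunits tested, 2 had that p, Psma1 (-0.28 ± 0.11) and Psmc6 (-0.39 ± 0.16), and among 23 subunits of oxidative phosphorylation 0 did. Cyp51, a demethylase of cholesterol synthesis, had -0.41 ± 0.15, while 10 other tested genes of that pathway had no such p. Synaptic vesicle, glutamate receptor and GABA receptor genes had 0 of 16, 0 of 12 and 0 of 8 tested members at that p.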

How the data were processed

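Hippocampal regions of 28 rats were microdissected and 0.5 µg of total RNA per array was amplified and biotin-labelled, per the labels' protocols. GenomeStudio 2011.1 was used, per the submitters' processing notes. The sources used here do not give the bead summary method or the slide of an array. Signal (intensity) values were deposited for 22523 probes on a linear scale, with values from 36 to 41948. A detection p-value stands beside each signal, per the file headers, and its value 0.01 marked the brightest probes and is treated as 0. In the normalized table the authors deposited a score, a z-score of the log10 signal within each array, which was recomputed with a largest difference of 0.0130.

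The normexp model in limma 3.58.1 (under R 4.3.3, tables read by data.table version 1.17.8) removed background estimated through the detection p-values; an offset of 16 was added, followed by log2 and quantile normalization over the 84 arrays. The offset shrinks differences of dim probes, and quantile normalization removes a shift shared by most probes. Tested probes had a detection p-value under 0.01 on 7 or more of the 28 arrays labelled CA1, which left 9919 probes, of which 2600 had no gene symbol. The other probes were read through their symbols, 1 symbol each, updated by Entrez number, as 7188 genes, each from its brightest tested probe. The 4 groups were fitted with lmFit and eBayes (trend) of limma to give SAHA minus vehicle in home cage and in RPC rats and the difference of these effects. A fit of the 42 home cage arrays, with no rat term, gave values in the other regions. Adjustment of p-values was by Benjamini-Hochberg, with calls at an adjusted p under 0.05. Precision is limited by 7 rats in each group. Each array of a region came from its own rat.

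The members and gene lists were chosen with earlier results of these data known. Genes are named by a rule: called genes, the 15 of smallest p in each direction, up to 4 members of each of 39 lists, 28 fixed genes, up to 15 genes of small p in both behaviours, up to 6 of smallest interaction p, up to 6 in each direction whose groups do not overlap, and the 5 most like Tmem252. Alternatives were median scaling, the authors' z-scores, no background correction, quantile over the 14 arrays, an offset of 50, no filter or a strict one, other sets of arrays in the fit, array weights, a replicate block, no trend, each array left out, and the mean over a gene's probes. In the main fit replicate numbers were not taken as pairs. In the fit of all 84 arrays they stood for the rat across regions, which the labels do not state. Replicate arrays were no copies of each other: the highest correlation between 2 of the 14 arrays was 0.994. The kappa-B letters searched in promoters were shortened after the matches of a longer, stricter form had been seen, so their matches are a description only.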

Additional observations from a re-analysis of the deposited data

Results flagged for a closer look

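Of 140 groups of 7 home cage arrays examined (67 genes and 3 quality measures, SAHA and vehicle each), 10 had an end array whose gap to its neighbour, over the group's range, exceeded Dixon's critical value. Chance gives about 5% of groups. In SAHA rats, Slc40a1 was lowest on replicate 6 at a normalized log2 intensity of 6.79, P3h1 was highest on replicate 2 at 8.83, and Tob1 was lowest on replicate 5 at 6.94. In vehicle rats, Dusp1 was highest on replicate 4 at 11.46, Jun was highest on replicate 1 at 10.40, and Tsc22d3 was lowest on replicate 4 at 11.22. Vehicle replicate 6 held the highest Cyp4f5 at 6.94 and the highest Fam117a at 6.36. The median correlation with other arrays was lowest on SAHA replicate 5 at 0.972 and on vehicle replicate 6 at 0.975.

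The SAHA effect differed between home cage and RPC rats for 1 probe without a gene symbol, by 1.03 on the log2 scale (limma interaction contrast, adjusted p = 0.0442). The probe was above background on 0 of 7 vehicle arrays of the home cage and 1 of 7 SAHA arrays of RPC, so this size rests in part on values at background. No probe passed in 12 of the 14 fits that left out 1 home cage array. Its adjusted p was 0.228 for the home cage effect and 0.17 for the RPC effect.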

How the results depend on the processing

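Tmem252 was called in each of 26 alternatives that tested its probe, with differences from -1.80 to -0.95 and adjusted p-values from 1.32e-07 to 6.12e-05 in limma. The filter on detection on every array left its probe out, and 0 probes were then called, with 605 at an unadjusted p under 0.05. In the fit of all 84 arrays with the rat, inferred from replicate numbers, as a random block, 2 probes were called. The estimated correlation within these blocks was -0.01. With array weights 7 probes were called, among them Gadd45g, Slc40a1 and Specc1l. Leaving out 1 array gave 1 to 4 calls: 4 each without SAHA replicate 3 or SAHA replicate 4, and 2 each without SAHA replicate 6 or vehicle replicate 1. For the difference of effects between home cage and RPC rats, 0 probes were called with the authors' z-scores, no filter, the strict filter, all 84 arrays with the rat block, the replicate block and without the 2 arrays of lowest correlation (an alternative chosen after seeing the data), 11 with array weights, and 0 to 1 with 1 array left out (0 in 12 of 14). Genes at an unadjusted p under 0.05 in both sets of rats with 1 direction were 51, against 24 with median scaling, 79 with array weights and 41 to 61 with 1 array left out. With the replicate number as a block, 1 probe was called. With the group mean of each probe removed, same-numbered SAHA and vehicle arrays correlated from -0.135 to 0.332. These values do not settle whether the numbers pair the arrays. The probes at an unadjusted p under 0.05 were 1167 without SAHA replicate 5 and 402 without SAHA replicate 7, against 710. Of 5288 values of 197 named genes, 2 turned their sign by more than the spread (Psmb1 and Chgb under median scaling, -0.01 and -0.02), 10 became called, and 28 genes changed sign in at least 1 alternative. The cause of these shifts was not tested.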
